A study of Mus musculus with 2 samples.

Results

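The Mir17 to Mir92 and Mir106b to Mir25 clusters are a pair of paralogous groups of microRNA (miRNA) genes, each transcribed as 1 precursor RNA from which several hairpins are cut. The members were taken by gene symbol from the annotation: 6 genes of the Mir17 to Mir92 cluster and 3 of the Mir106b to Mir25 cluster, so 9 of the 2202 miRNA genes in the files. No measured value was used to choose them.

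The samples are gastrocnemius, a calf muscle, from adult female mice of the strain B6CASTF1/J, an F1 hybrid, at 18 to 20 months of age, with no treatment or engineered allele in the labels. Short RNAs were sequenced as 2 libraries of 1 group, numbered as biological replicates 1 and 2, so there is no contrast between conditions. Both carry the same donor entry but separate tissue entries. The spread between them may therefore be technical, and n = 2 throughout. Of 6888732 reads in replicate 1 and 12001270 in replicate 2, 865419 and 2177048 were counted on the sense strand of miRNA genes, and 80.7% and 71.0% were reads with several mapping positions, which enter no gene count. Levels are given in CPM, the counts of a gene per 1000000 such counts in its library, and intervals are exact 95% intervals that cover counting error only. Of the fixed markers, those of striated muscle, 6 genes all detected in both libraries, gave a sum of 40743 CPM in replicate 1 and of 103501 CPM in replicate 2. Nearly all of this counted sum was Mir206, at 40388 and 103232 CPM. It was the 1 gene of the list called between the libraries by the test described below (2.56-fold higher in replicate 2). Mir1a-2 went from 270 to 162 CPM and was not called. Copies of the marker sequences in other hairpins were not searched for, and reads with several mapping positions are left out. The sum therefore does not give the makeup of striated muscle miRNAs.

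As background, the precursor of Mir17 to Mir92 is a long noncoding RNA, Mir17hg, known as a target of Myc and of E2F factors and as an oncogenic miRNA locus. The Mir106b to Mir25 hairpins sit in an intron of Mcm7, a subunit of the helicase that opens DNA for replication. Members act through the seed, bases 2 to 8 of the mature miRNA: the Mir17 seed is known for lowering the cell cycle inhibitor Cdkn1a and the death gene Bcl2l11, and Mir92 for limiting vessel growth. Another cluster of the same descent lies on chromosome X, led by Mir106a.

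The 9 mature sequences fell into 4 seed groups, and both clusters contributed to 2 of them. The sequences below are those of the arm usually loaded into Argonaute, from RefSeq on GRCm38.p6 (the assembly called mm10 in the files), 5′ to 3′, with the seed in capitals. They are shown because the paralogous comparisons and the limits of unique counting rest on them. All 9 members matched by symbol, and their hairpins were identical in GENCODE M21.
miR-17-5p (Mir17): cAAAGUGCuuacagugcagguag
miR-20a-5p (Mir20a): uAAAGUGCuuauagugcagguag
miR-106b-5p (Mir106b): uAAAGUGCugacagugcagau
miR-93-5p (Mir93): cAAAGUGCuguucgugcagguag
miR-18a-5p (Mir18): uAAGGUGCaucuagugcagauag
miR-19a-3p (Mir19a): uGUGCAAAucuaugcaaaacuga
miR-19b-3p (Mir19b-1): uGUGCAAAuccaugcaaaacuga
miR-92a-3p (Mir92-1): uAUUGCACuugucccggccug
miR-25-3p (Mir25): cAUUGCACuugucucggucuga

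Positions below count from 1 at the 5′ end, without gaps, with the base of the gene named first written first. Mir17 and Mir106b were identical at 18 of 21 bases compared and differed at C1U, U10G and G20A. Mir20a and Mir93 were identical at 19 of 23 (U1C, U10G, A11U and A13C), and Mir92-1 and Mir25 at 18 of 21 (U1C, C14U and C18U). All these differences lay outside the seed. Within the Mir17 to Mir92 cluster, Mir17 and Mir20a differed at C1U and C12U, and Mir19a and Mir19b-1 at U11C alone.

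The mature sequences of Mir19b-1 and Mir92-1 recur without a mismatch in 1 other annotated hairpin each, Mir19b-2 and Mir92-2 of the X-linked cluster. The longest run they share with that hairpin was 25 bases for the Mir19b pair and 22 for the Mir92 pair. A read that lies inside such a run has more than 1 mapping position, so the counts of Mir19b-1 and Mir92-1 are lower bounds. The other 7 members have no such copy among the 2202 hairpins. The nearest sequence to Mir17 was at 1 mismatch in Mir106a, and the nearest to Mir19a was at 1 mismatch in Mir19b-1 and Mir19b-2. Copies elsewhere in the genome were not searched. The files give 1 count per gene, so the 5p and 3p arms of a hairpin are counted together. A read of exactly the mature sequence of Mir92-1 shown above also matches Mir92-2. Which reads make up the counts of Mir92-1 is therefore not settled.

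The Mir17 to Mir92 hairpins span 836 bases at chr14:115043671-115044506 on the plus strand of mm10, all in an exon of Mir17hg (115042879 to 115046727). In order of transcription they are Mir17 (ENSMUSG00000065508.1), Mir18 (ENSMUSG00000065403.1), Mir19a (ENSMUSG00000065416.1), Mir20a (ENSMUSG00000065442.1), Mir19b-1 (ENSMUSG00000076256.1) and Mir92-1 (ENSMUSG00000076062.1). The Mir106b to Mir25 hairpins span 498 bases at chr5:138165321-138165818 on the minus strand, in intron 13 of the Mcm7 transcript Mcm7-201, in the order Mir106b (ENSMUSG00000065514.1), Mir93 (ENSMUSG00000065527.1) and Mir25 (ENSMUSG00000065394.1). Mir93 and Mir25 each also lie in an exon of 1 of the 10 annotated Mcm7 transcripts, and Mir106b lies within an exon of none. None of the 9 had an antisense count in either library, and sense and unstranded counts were equal for all 9.

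Both clusters were detected at similar summed levels, and together they made up 0.567% ± 0.0435 (SD) of the gene counts. Mir17 to Mir92 summed to 3064 counts or 3540 CPM in replicate 1 (Clopper-Pearson interval 3416 to 3668) and 6168 counts or 2833 CPM in replicate 2 (2763 to 2905), a mean of 3187 ± 500.1 CPM. Mir106b to Mir25 summed to 2106 counts or 2434 CPM in replicate 1 (2331 to 2540) and 5498 counts or 2525 CPM in replicate 2 (2459 to 2593), a mean of 2479 ± 65.0 CPM. The larger cluster was thus ahead in both libraries, by 1.45 to 1 in replicate 1 (interval 1.38 to 1.54) and 1.12 to 1 in replicate 2 (1.08 to 1.16). Its mean lead on the log2 scale was 0.35 ± 0.27. With 2 libraries a sign-flip test cannot give a p under 0.5. Since Mir92-1 and Mir19b-1 are lower bounds, reads of theirs lost to multimapping would make this lead larger. Taking both genes out of the sums gave a mean log2 ratio of -0.51, which reflects the removal of Mir92-1, the member with the largest mean share of the cluster, and runs opposite to that loss. In bulk tissue, fewer cells of a type and less RNA per cell cannot be told apart.

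Counts within each cluster were concentrated in few hairpins. In the Mir17 to Mir92 cluster, Mir92-1 held 44.6% ± 9.29 of the cluster's counts, Mir17 34.9% ± 4.95 and Mir20a 19.4% ± 4.49. In the Mir106b to Mir25 cluster, Mir93 alone held 79.0% ± 9.62. Reads of Mir92-1 lost to multimapping would raise its share, if no other member lost reads. Across both, the order by mean level of counted reads was Mir93, Mir92-1, Mir17, Mir20a, Mir106b, Mir25, Mir18, Mir19a and Mir19b-1. The order of Mir19a and Mir19b-1 was reversed between the libraries and was not settled. Levels are compared per gene, since the mature miRNAs are 21 to 23 bases long.

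**Figure D1:**
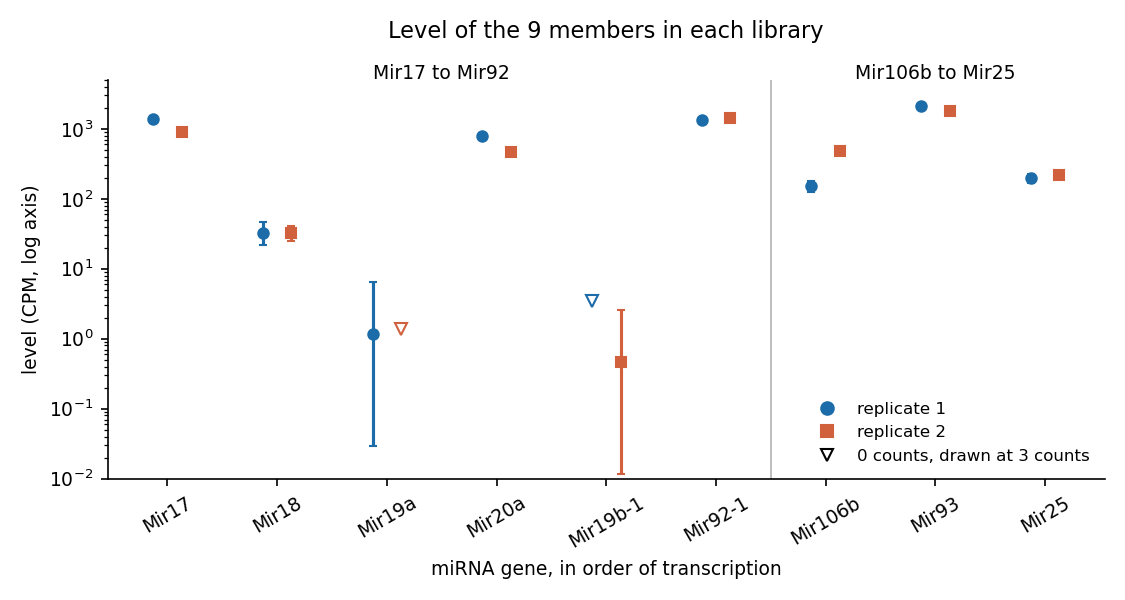
Level of each member in CPM (log axis) in replicate 1 (circles) and replicate 2 (squares), with exact 95% Poisson intervals and with open triangles at 3 counts where no read was counted. Mir93, Mir92-1 and Mir17 lie between 890 and 2087 CPM, Mir18 at 32 CPM, and Mir19a and Mir19b-1 at the bottom with at most 1 count.

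Mir93, of the Mir17 seed group, had the most counted reads of the 9 in both libraries. It was counted 1806 times in replicate 1 and 3967 times in replicate 2, or 2087 and 1822 CPM, and ranked 42 and 47 among the 2202 genes. It exceeded the next member in each library beyond counting error, by 1.53-fold over Mir17 in replicate 1 (interval 1.42 to 1.65) and by 1.26-fold over Mir92-1 in replicate 2 (1.20 to 1.32). Mir92-1 is a lower bound, so its rank below Mir93 holds for uniquely mapped reads only.

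Mir92-1, of the seed group it shares with Mir25, stood at 1166 counts in replicate 1 and 3158 in replicate 2, or 1347 and 1451 CPM. These are lower bounds, as given above. Mir17 stood at 1177 and 1938 counts, or 1360 and 890 CPM. The ratio of the counted reads of Mir92-1 to those of Mir17 was 0.991 in replicate 1 (0.913 to 1.08) and 1.63 in replicate 2 (1.54 to 1.73). Both ratios are lower bounds if Mir17 lost no reads, and the intervals cover counting error only, so the order in replicate 1 was not settled.

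Mir20a, which shares the seed of Mir17, stood at 692 and 1001 counts, or 800 and 460 CPM. Mir17 exceeded it by 1.70-fold in replicate 1 (1.55 to 1.87) and 1.94-fold in replicate 2 (1.79 to 2.09), so this pair kept its order and nearly its ratio in both libraries. Mir106b stood at 130 counts in replicate 1 and 1050 in replicate 2, or 150 and 482 CPM. Mir106b lay far below Mir20a in replicate 1 and level with it in replicate 2, where their ratio was 1.05 (0.961 to 1.14). Mir25 stood at 170 and 481 counts, or 196 and 221 CPM. It was 1.31-fold above Mir106b in replicate 1 (1.03 to 1.66), and 2.18-fold below it in replicate 2 (1.96 to 2.44). Mir106b thus has no settled place among Mir20a, Mir106b and Mir25.

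Mir18 was counted 28 and 70 times, which gave 32.4 and 32.2 CPM. It lies between Mir17 and Mir20a on the same precursor, yet Mir17 exceeded it 42.0-fold in replicate 1 (28.9 to 63.5) and 27.7-fold in replicate 2 (21.8 to 35.7). The Mir19 hairpins were nearly uncounted. Mir19a had 1 count in replicate 1 and 0 in replicate 2, and Mir19b-1 had 0 and 1. A count of 0 allows up to 3 counts. Its upper end was 4.26 CPM or 0.120% of the cluster's counts for Mir19b-1 in replicate 1. For Mir19a in replicate 2 it was 1.69 CPM or 0.0598%. Mir19b-1 is a lower bound through its exact copy among the annotated hairpins. For Mir19a no exact copy was found, and Mir19b-1 and Mir19b-2 each hold its mature sequence with 1 mismatch. Mir20a, which lies between both Mir19 hairpins, was counted 692 and 1001 times. Why both Mir19 genes lacked counts was not tested.

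**Figure D2:**
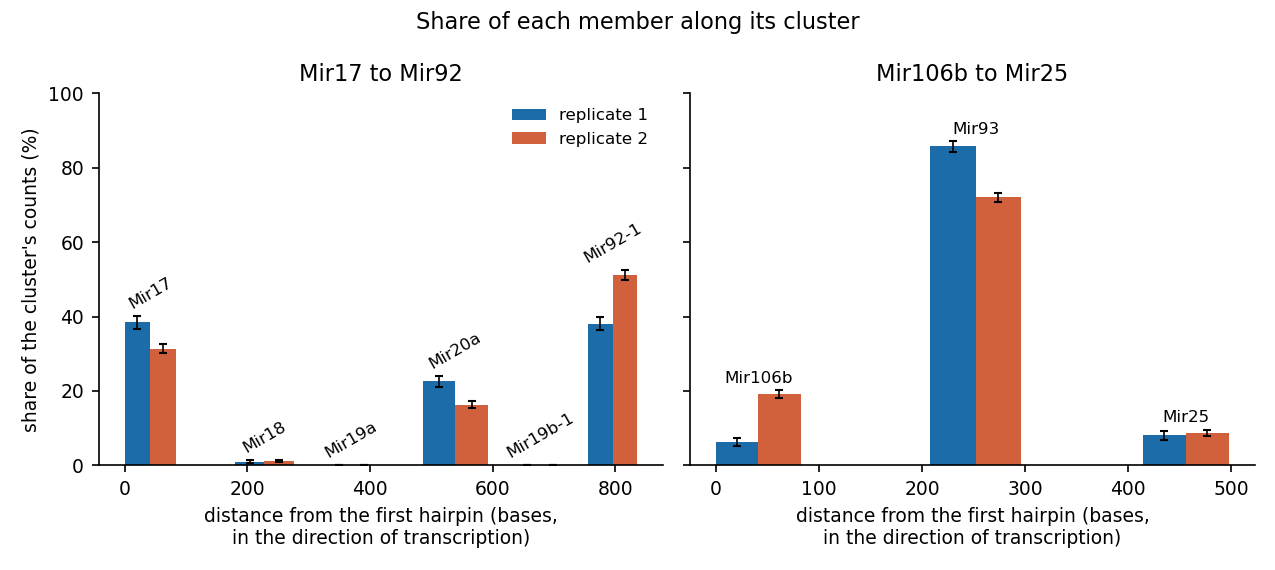
Share of the cluster's counts (%) held by each member, placed by the distance of its hairpin from the first hairpin in bases, for replicate 1 (left of each pair of bars) and replicate 2 (right), with exact Clopper-Pearson 95% intervals. In the Mir17 to Mir92 cluster, tall bars at Mir17, Mir20a and Mir92-1 alternate with hairpins at 1.13% or less, and in the Mir106b to Mir25 cluster the middle hairpin, Mir93, is the tallest.

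Between the libraries the makeup of both clusters shifted, a comparison that does not depend on how the libraries are scaled. Mir92-1 held 38.1% of its cluster in replicate 1 (36.3 to 39.8) and 51.2% in replicate 2 (49.9 to 52.5). Mir17 held 38.4% (36.7 to 40.2) and 31.4% (30.3 to 32.6), and Mir20a 22.6% (21.1 to 24.1) and 16.2% (15.3 to 17.2). These intervals cover counting error only, and shares of 1 cluster depend on each other. By counting error alone, 67.9% of all tested genes differed between the libraries (adjusted p under 0.05, exact binomial test described below, no ratio threshold). Multimapping reads, among which reads of Mir92-1 can be lost, also differed, at 80.7% and 71.0% of all reads, and their part in these shares was not tested. Mir106b held 6.17% of its cluster in replicate 1 (5.18 to 7.29) and 19.1% in replicate 2 (18.1 to 20.2), while Mir93 held 85.8% (84.2 to 87.2) and 72.2% (70.9 to 73.3). The share of Mir25 was 8.07% (6.94 to 9.32) and 8.75% (8.01 to 9.53), with overlapping intervals.

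The paralogous genes did not follow 1 direction: the Mir17hg member was ahead in the pairs Mir17 with Mir106b and Mir92-1 with Mir25, and the Mcm7 member in the pair Mir20a with Mir93. Mir92-1 exceeded Mir25 by 6.86-fold in replicate 1 (5.83 to 8.10) and 6.57-fold in replicate 2 (5.96 to 7.24), so the mean log2 ratio was 2.75 ± 0.04. Reads of Mir92-1 lost to multimapping would make it larger. The ratio of the ratios, replicate 2 over replicate 1, was 0.957 (exact conditional interval 0.789 to 1.16). Mir93 exceeded Mir20a by 2.61-fold (2.39 to 2.85) and 3.96-fold (3.70 to 4.25), so the log2 ratio of Mir20a to Mir93 was -1.69 ± 0.43. Mir17 exceeded Mir106b by 9.05-fold in replicate 1 (7.55 to 10.9) and by only 1.85-fold in replicate 2 (1.71 to 1.99). The direction held in both libraries for each of the 3 pairs, but the size of the Mir17 lead over Mir106b, with a mean log2 ratio of 2.03 ± 1.62, was 4.90 times as large in replicate 1 (4.02 to 6.01).

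**Figure D3:**
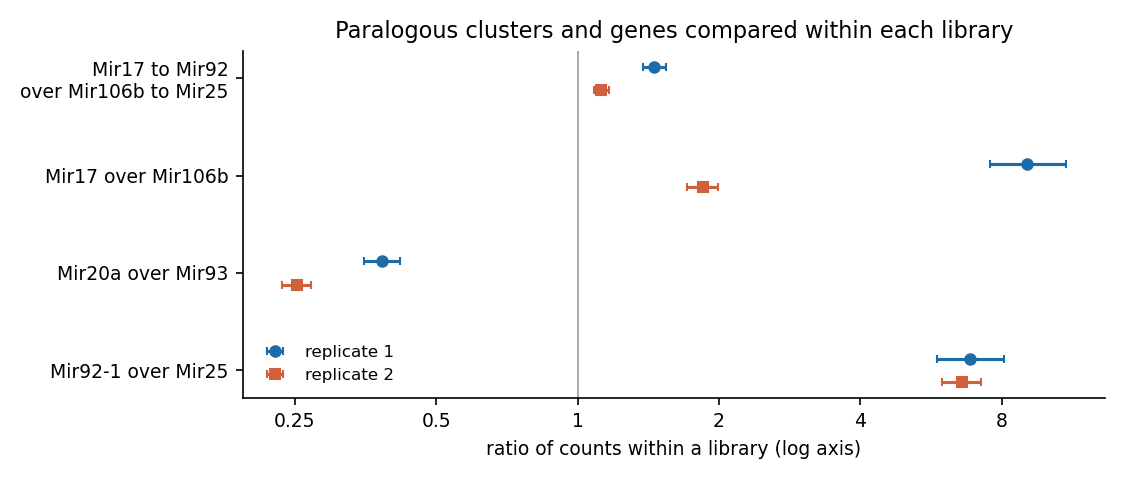
Ratio of counts within each library (log axis) for the summed clusters and the 3 paralogous pairs, with exact 95% conditional intervals, replicate 1 as circles and replicate 2 as squares. Each comparison lies on 1 side of the line at 1 in both libraries, and the points of the pair Mir17 over Mir106b lie farthest apart, at 9.05 and 1.85.

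Grouped by seed, the AAAGUGC miRNAs Mir17, Mir20a, Mir106b and Mir93 held 70.9% ± 3.82 of the counts of the 9 members. Its level was 4397 CPM in replicate 1 against 3654 CPM in replicate 2. In replicate 1 both clusters fed this group about equally, with 1869 counts from Mir17 to Mir92 and 1936 from Mir106b to Mir25. In replicate 2 the Mcm7 hairpins gave most of it, with 5017 counts against 2939. The share from Mir17 to Mir92 was accordingly 49.1% and 36.9%. The AUUGCAC group, Mir92-1 and Mir25, held 28.5% ± 3.78. The share from Mir92-1 was 87.3% in replicate 1 and 86.8% in replicate 2. Reads of miR-92a-3p lost to multimapping would raise the AUUGCAC share and lower the AAAGUGC share, if other members lost none. The groups place all counts of a gene under the seed of its usual arm, so reads of the other arm are included. The AAGGUGC group, Mir18, held 0.571% ± 0.0413, and the GUGCAAA group, Mir19a and Mir19b-1, held 1 count in each library. Neither of these last groups has a gene in the Mcm7 cluster.

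Among single genes, Mir106b was the member that differed most between the libraries. An exact conditional binomial test, which sets each gene's counts against the totals of both libraries, was run on the 305 genes whose counts averaged 10 or more, and p-values were adjusted over all of them by the Benjamini-Hochberg method. Calls needed an adjusted p under 0.05 together with a 2-fold or larger ratio. Such a test weighs counting error between 2 libraries and says nothing of conditions. Of the 9 members, 7 were tested, and Mir19a and Mir19b-1 were too low. Mir106b was called, 3.21-fold higher in replicate 2 (2.67 to 3.88, exact adjusted p = 1.21e-46), and 6 members were not called. Calls toward replicate 2 made up 26.9% of all tested genes and calls toward replicate 1 6.89%. The members' 1 of 7 and 0 of 7 are no more than this background.

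The other tested members differed less. Mir20a was 1.74-fold higher in replicate 1 (1.58 to 1.92, exact adjusted p = 5.06e-27) and Mir17 1.53-fold higher (1.42 to 1.64, exact adjusted p = 1.65e-28). Mir93 was 1.15-fold higher in replicate 1 (1.08 to 1.21). Mir92-1 had a ratio of replicate 2 to replicate 1 of 1.08 (1.01 to 1.15), Mir25 of 1.12 (0.942 to 1.35) and Mir18 of 0.994 (0.633 to 1.60). Without the ratio threshold 5 of the 7 had an adjusted p under 0.05 by the same exact test, against 67.9% of all tested genes. Their median log2 ratio was -0.01, against 0.43 for all tested genes (quartiles -0.14 and 1.28), and 6 of the 7 lay below the latter median.

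Scaling decided which members of the Mir17 to Mir92 cluster were called. Normalization by TMM lowered each log2 ratio of replicate 2 to replicate 1 by 0.28, and DESeq2 size factors lowered it by 0.42. Mir20a was then called higher in replicate 1 with TMM (2.12-fold) and Mir20a and Mir17 with size factors (2.32-fold and 2.04-fold), where 10.5% and 12.8% of all tested genes were called in that direction. Mir106b stayed called higher in replicate 2, at 2.64-fold and 2.40-fold, against 21.6% and 19% of all tested genes. Mir92-1 and Mir25 changed sign under both scalings, so no direction is given for them.

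**Figure D4:**
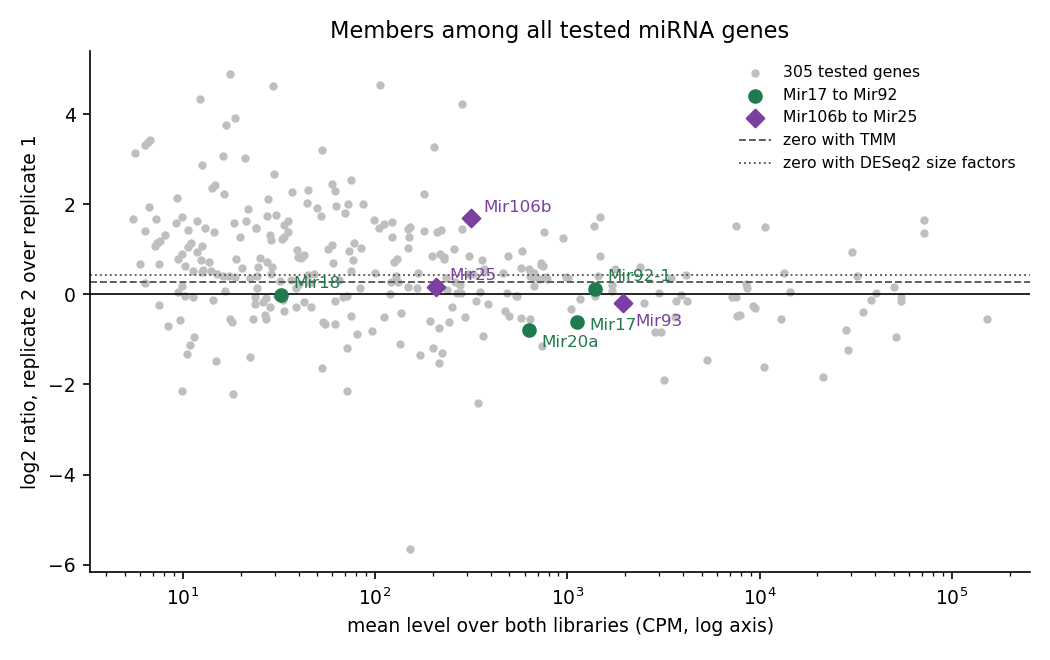
Log2 ratio of replicate 2 to replicate 1 against the mean level in CPM (log axis) for the 305 tested genes in grey, the 4 tested members of Mir17 to Mir92 as circles and the 3 of Mir106b to Mir25 as diamonds; the dashed and dotted lines mark where 0 would lie with TMM and with DESeq2 size factors. Mir106b lies at 1.68, above the other members, and Mir17 and Mir20a lie lowest of the members, at -0.61 and -0.80.

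Of the markers of other cell types, the leukocyte, smooth muscle and liver lists held genes called between the libraries. The erythroid, endothelial and neural lists held none. Of all tested genes, 26.9% were called toward replicate 2 and 6.89% toward replicate 1. Both clusters are known to be expressed in blood and dividing cells. The 4 leukocyte markers summed to 3619 CPM in replicate 1 and 4085 CPM in replicate 2, none at 0. With library totals 2 of them, Mir142 and Mir223, were called toward replicate 1. Mir155, from 1432 to 2120 CPM, and Mir150, from 1663 to 1746 CPM, were higher in replicate 2 and not called. The list thus gave no single direction. The 2 erythroid markers summed to 230 and 316 CPM and were not called. The endothelial list, Mir126a and Mir126b, summed to 47279 and 52968 CPM, with Mir126b at 0 in both libraries, and the smooth muscle list, Mir143 and Mir145a, to 75404 and 37985 CPM, with 1 of 2 called higher in replicate 1. Neural markers had 1 and 5 counts over 6 genes, and the liver marker Mir122 had 9 and 207. Their part in the differences of Mir17, Mir20a and Mir106b was not tested.

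The X-linked cluster, with 6 genes, was counted far less than either. Its 62 counts in replicate 1 made 71.6 CPM and its 199 counts in replicate 2 made 91.4 CPM, so Mir17 to Mir92 exceeded it 49.4-fold (38.4 to 64.6) and 31.0-fold (26.9 to 35.9). Mir106b to Mir25 exceeded it 34.0-fold (26.4 to 44.5) and 27.6-fold (24.0 to 32.0), which are upper bounds as far as reads of Mir92-2 and Mir19b-2 were lost to multimapping. The first pair of folds sets 2 clusters that hold the copied sequences against each other, so they are not bounds in either direction. Its counts were again led by the Mir92 gene, Mir92-2, at 40 and 164 counts, which are lower bounds like those of Mir92-1. Mir20b, of the Mir17 seed group, followed at 13 and 17 counts and Mir106a at 5 and 9, Mir363 had 2 and 8, Mir18b 2 and 1, and Mir19b-2 had 0 in both libraries, which is a lower bound because it carries the mature sequence of Mir19b-1. Of this cluster, Mir92-2 and Mir20b were tested and neither was called with library totals. With TMM and with DESeq2 size factors Mir20b was called higher in replicate 1, with 2.34-fold (exact adjusted p = 0.0495) and 2.57-fold (exact adjusted p = 0.0256) ratios. In that direction 10.5% and 12.8% of all tested genes were called. Its seed mates did not share 1 direction. Mir20a was called the same way under both scalings and Mir17 with size factors only. Mir93 was not called, and Mir106b was called higher in replicate 2 under both.

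Outside the 3 clusters, 2 further genes of the Mir92 and Mir25 seed family were counted. Mir92b stood at 16 counts in replicate 1 and 221 in replicate 2, or 18.5 and 102 CPM, and was called 5.49-fold higher in replicate 2 (3.31 to 9.78, exact adjusted p = 4.17e-16). Mir32 had 12 and 40 counts and was not called (ratio 1.33, 0.682 to 2.77). The intervals of Mir92-1 and Mir25, of the same seed, ended at 1.15 and 1.35, below that of Mir92b and within that of Mir32.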

How the data were processed

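The authors deposited raw counts of reads per miRNA gene, 1 file per library, with no normalization. Per the deposited README files, they refer to mm10 and GENCODE M21. Aligner, counter and trimming: not given in the sources used here. All 2202 gene identifiers matched GENCODE M21. The sense column was used, and the tallies of unmapped, multimapping, unassigned and ambiguous reads were left out of totals and tests.

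The members and lists were chosen with earlier results of these data known. All 9 members, the X-linked cluster, Mir32 and Mir92b are named. For each cluster, the 3 genes closest in library ratio are named too, and marker lists are given by their sums. Marker genes with calls or at 0, and Mir150 and Mir155, were named after their values were seen. The comparison of neighbouring genes was likewise chosen after values were seen. Genes were compared between libraries over all 305 tested genes by an exact binomial test. The test was checked on counts simulated with counting error only, as it assumes. That check does not cover any other spread between the libraries. edgeR's quasi-likelihood test needs a contrast, which 1 group does not give. Poisson, Clopper-Pearson and conditional intervals used SciPy 1.17.1 in Python 3.11.15 with pandas 2.3.3 and NumPy 2.4.6. TMM factors came from edgeR 4.0.16 and size factors from DESeq2 1.42.0 in R 4.3.3. The alternatives were these scalings, the most abundant gene left out of the totals, the filter dropped or raised to an average of 100 counts, no ratio threshold, the unstranded column, counts per base of gene length, members with a copied mature sequence left out, and each library left out.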

Additional observations from a re-analysis of the deposited data

How the results depend on the processing

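No paired analysis was possible because the series has 1 group. The number of called genes, 103, moved to 50 when genes had to average 100 counts and to 207 without a ratio threshold. Calls higher in replicate 2 made up 79.6% of all calls with library totals, 67.3% with TMM and 59.8% with DESeq2 size factors. The log2 ratio of Mir92-1, 0.11 with library totals, turned to -0.18 with TMM and -0.31 with size factors, and that of Mir25, 0.17, to -0.11 and -0.25, because these scalings shift every ratio. The unstranded column has smaller library totals, so it raised the summed level of Mir17 to Mir92 to 4165 CPM and that of Mir106b to Mir25 to 3227 CPM. Scaled to gene length, the latter was 2398 CPM, and the log2 ratio of Mir92-1 to Mir25 was 2.82. With copied mature sequences left out, the log2 ratio of the clusters turned from 0.35 to -0.51, and the seed shares became 94.3% for AAAGUGC, 0.761% for AAGGUGC and 4.95% for AUUGCAC, since Mir92-1 leaves the sums; counting its lost reads would instead raise the log2 ratio and the AUUGCAC share and lower the AAAGUGC share. From a single library, the ratio of the clusters ranged from 0.17 to 0.54 on the log2 scale, and that of Mir17 to Mir106b from 0.88 (replicate 2) to 3.18 (replicate 1). Each library alone kept the direction of the cluster ratio and of all 3 paralogous ratios. Calls need both libraries, so leaving 1 out gives none. Mir18, Mir19a and Mir19b-1 are limited by counts of 70 or fewer.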

Other observations

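Neighbouring hairpins on 1 strand were also compared between these libraries. Among 51 pairs of tested genes at most 1000 bases apart, the median absolute difference of their log2 ratios was 0.80 (upper quartile 1.17). Mir93 and Mir106b differed by 1.88, rank 4 of 51, after Mir15b and Mir16-2 (2.68), Mir411 and Mir299a (2.14) and Mir540 and Mir665 (1.90). Mir20a and Mir92-1 differed by 0.90, Mir18 and Mir20a by 0.79, Mir17 and Mir18 by 0.60 and Mir25 and Mir93 by 0.37. In level, Mir17 and Mir18 differed by 5.12 on the log2 scale, rank 8 of 51, against a median of 2.54. These pairs share libraries and some share precursors, so no test was made. Unrelated pairs were not compared, and the log2 ratios of all tested genes had an SD of 1.255. The values therefore do not show whether neighbours differ more or less than other genes. Mir665 rests on 1 count in replicate 1 and 22 in replicate 2.

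Over the 2 libraries, the genes whose ratio lay nearest to that of the summed Mir17 to Mir92 cluster (log2 ratio -0.32), among 24 genes of similar level, were Mir181b-2 (-0.33), Mir99b (-0.19) and Mir130a (-0.10). For Mir106b to Mir25 (0.05), the nearest of 22 candidates were Mir322 (0.03), Mir150 (0.07) and Mir28a (-0.02). With 2 libraries such a likeness is 1 number per gene and describes these libraries.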
